A study of Danio rerio with 6 samples.

Results

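Matrix metalloproteinases (MMPs), their tissue inhibitors (TIMPs) and the ADAMTS family were examined across the sinoatrial ring and the remaining cells of the embryonic zebrafish heart. The members were all genes whose symbol begins with mmp, timp or adamts and carries the family number, and 52 of 31465 genes met this rule. They comprised 12 secreted MMPs, 12 membrane-bound MMPs, 5 TIMPs, 19 ADAMTS proteases and 4 ADAMTS-like genes. Of these, 47 passed the filter on low counts and were tested between the fractions.

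Hearts were taken at 72 hpf (hours post-fertilization) from the transgenic zebrafish line sqet33mi59BEt, an enhancer trap line with GFP in a ring of cells at the inflow of the atrium. Both fractions carry this same transgene and, by the study's methods, came from the same pools of hearts. Each pool was dissociated and its cells sorted by GFP. This gave the GFP-positive sinoatrial ring (SAR, 3 libraries) and the GFP-negative rest of heart (ROH, 3 libraries). Each library came from pooled hearts, so no value belongs to 1 animal. The p-values measure the spread between the libraries of a fraction. They take account of the shared pools only where a replicate block is named. The sorting gate is GFP alone, so any cell carried along with the dissected heart falls into 1 of the fractions.

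MMPs are zinc-dependent enzymes that cut collagens, laminins and other matrix proteins, and they are made as inactive precursors. TIMPs bind the active site of MMPs and block it, and TIMP2 has a second role in mammals, where it holds the precursor of MMP2 next to the membrane enzyme MMP14 for activation. ADAMTS proteases trim procollagens and cut large proteoglycans such as versican, a main component of the cardiac jelly of the young heart, while ADAMTS-like proteins share the non-catalytic modules but lack the protease domain.

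Library totals were 7495108, 35013935 and 77243214 estimated counts in SAR replicates 1 to 3, against 999437, 23495798 and 19081874 in ROH replicates 1 to 3. ROH replicate 1 was the shallowest library by far, and 24 members had 3 or fewer counts there. Levels are given as TPM (transcript abundance normalized to gene length and library total), which allows levels of different genes to be compared. Among the sinoatrial markers, tbx18, hcn4, bmp4 and tbx2b were higher in SAR with an adjusted p below 0.05, 4 of 7 listed, while isl1 had 10.2, 9.94 and 17.9 TPM in SAR against 78.9, 24.8 and 12.9 TPM in ROH. The fractions also differed in other cell types. Erythroid markers, globin genes among them, differed most, with sums of 9.76 to 18.8 TPM in SAR against 25880 to 42346 TPM in ROH, and 7 of 7 fell. Epidermal markers summed to 4559 to 6801 TPM in SAR against 579 to 768 TPM in ROH, and 7 of 9 rose. Leukocyte markers summed to 5.63 to 9.38 TPM in SAR against 245 to 415 TPM in ROH, endocardial and endothelial markers to 69.0 to 104 TPM against 259 to 633 TPM, and liver markers to 54.2 to 2092 TPM against 10790.1 to 18394 TPM. Of 9 epicardial and fibroblast genes 4 rose as well, namely tcf21, wt1a, wt1b and aldh1a2. The others, col1a1a, COL1A1, COL1A2, pdgfra and DCN, had log2 fold changes of −0.73 to 0.24 (edgeR adjusted p of 0.246 to 0.746). Of these, col1a1a passed as lower in SAR with the replicate number as a block (log2 fold change −0.67, edgeR adjusted p = 0.0424). The sums of this list overlapped, at 1833 to 2429 TPM in SAR and 1363 to 2231 TPM in ROH. Cardiomyocyte markers summed to 3513, 3847 and 1018 TPM in SAR replicates 1 to 3, against 1273, 1311 and 736 TPM in ROH. These sums overlapped, but SAR was the higher fraction within each replicate number. Of 6 cardiomyocyte markers 1 rose, tnnt2a. With the replicate number as a block in the fit MYL7, cmlc1 and nppa passed as well (edgeR adjusted p = 0.0323, 0.0018 and 0.0077). The part of these other cell types in the values of the members was not tested. In bulk libraries, fewer cells of a type and less RNA per cell cannot be told apart, and this holds for every result that follows.

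**Figure D1:**
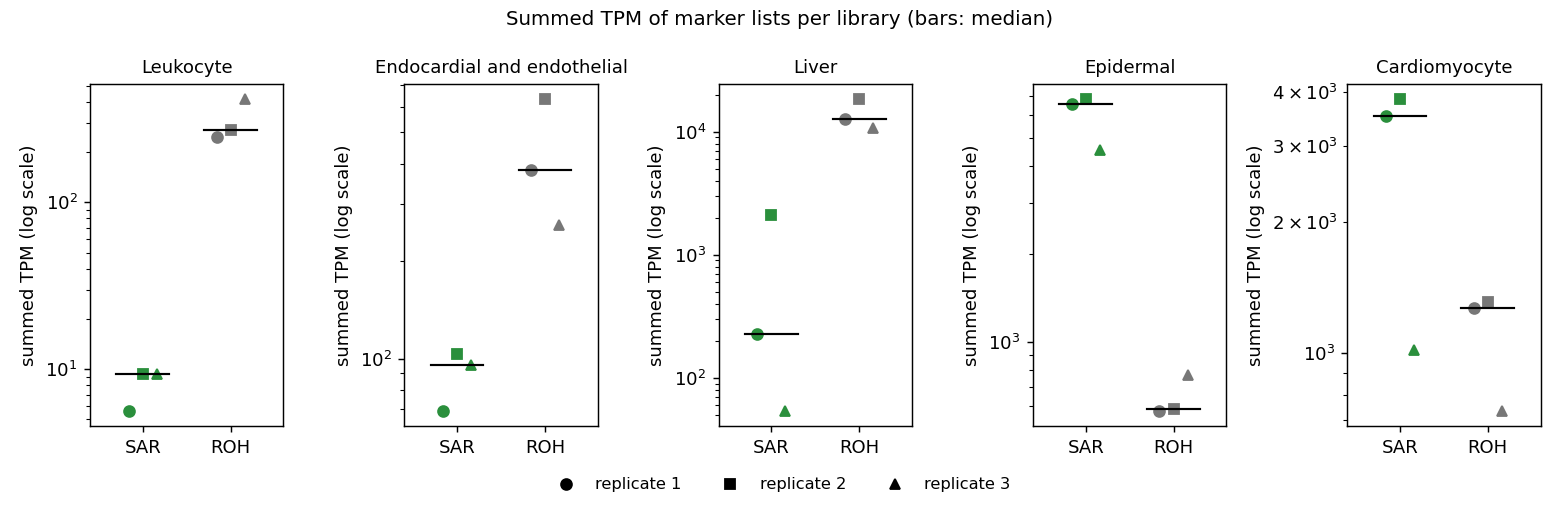
Summed TPM of 5 marker lists in each library on a log axis, with SAR left of ROH, symbols for the replicates and bars for the medians. Leukocyte, endothelial and liver markers lie lower in all 3 SAR libraries than in any ROH library, and epidermal markers lie higher. Cardiomyocyte markers overlap between the fractions but are higher in SAR within each replicate number.

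The family leaned towards SAR. Of the 47 tested members, 36 had a higher fitted level in SAR and 11 a lower one, and the median log2 fold change was 0.64, beside 0.03 over all 21969 genes tested. A member was called where the edgeR quasi-likelihood test gave a Benjamini-Hochberg adjusted p below 0.05 and the log2 fold change was at least 1.5 in either direction. By this rule 5 members were called higher in SAR (10.6% of those tested), against 2.84% of all genes, and 3 were called lower (6.38%), against 3.70% of all genes. Without the fold threshold, 12 members rose (25.5%), against 4.88% of all genes, and 3 fell (6.38%), against 5.45% of all genes. In 22 members all 3 SAR libraries exceeded all 3 ROH libraries in CPM (counts scaled to the TMM-normalized library total), which held for 14.3% of all genes, and in 5 members all 3 lay below, which held for 15.6% of all genes. The share of members that fell was thus near the background. Each pool of hearts was sorted into both fractions, so same-numbered libraries were taken as pairs. A fit with the replicate number as a block called 9 members higher and 2 lower, beside 3.27% and 4.73% of all genes. At an adjusted p below 0.05 it gave 18 members that rose and 2 that fell, beside 6.77% and 7.25% of all genes. The called counts were 4 higher and 1 lower when the fit took account of the gene length listed for each library, beside 599 and 765 of 21969 genes. Leaving out any 1 library left at most 1 member called lower, beside 442 to 1035 of all genes, against 813 in the main fit. The number that rose depended on single libraries: without ROH replicate 2 it was 4, without ROH replicate 1 it was 6 and without SAR replicate 3 it was 6. Over all genes, no count without the fold threshold was made for these fits. With the threshold, the members called higher were 3, 4 and 4 in that order, against 5 in the main fit. Over all genes they were 369, 450 and 540, against 624 in the main fit. With only those members that had at least 10 counts in every library, 18 were left to test and 7 of them rose. Of these 18, 0 were called higher, beside 215 of 11306 genes.

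**Figure D2:**
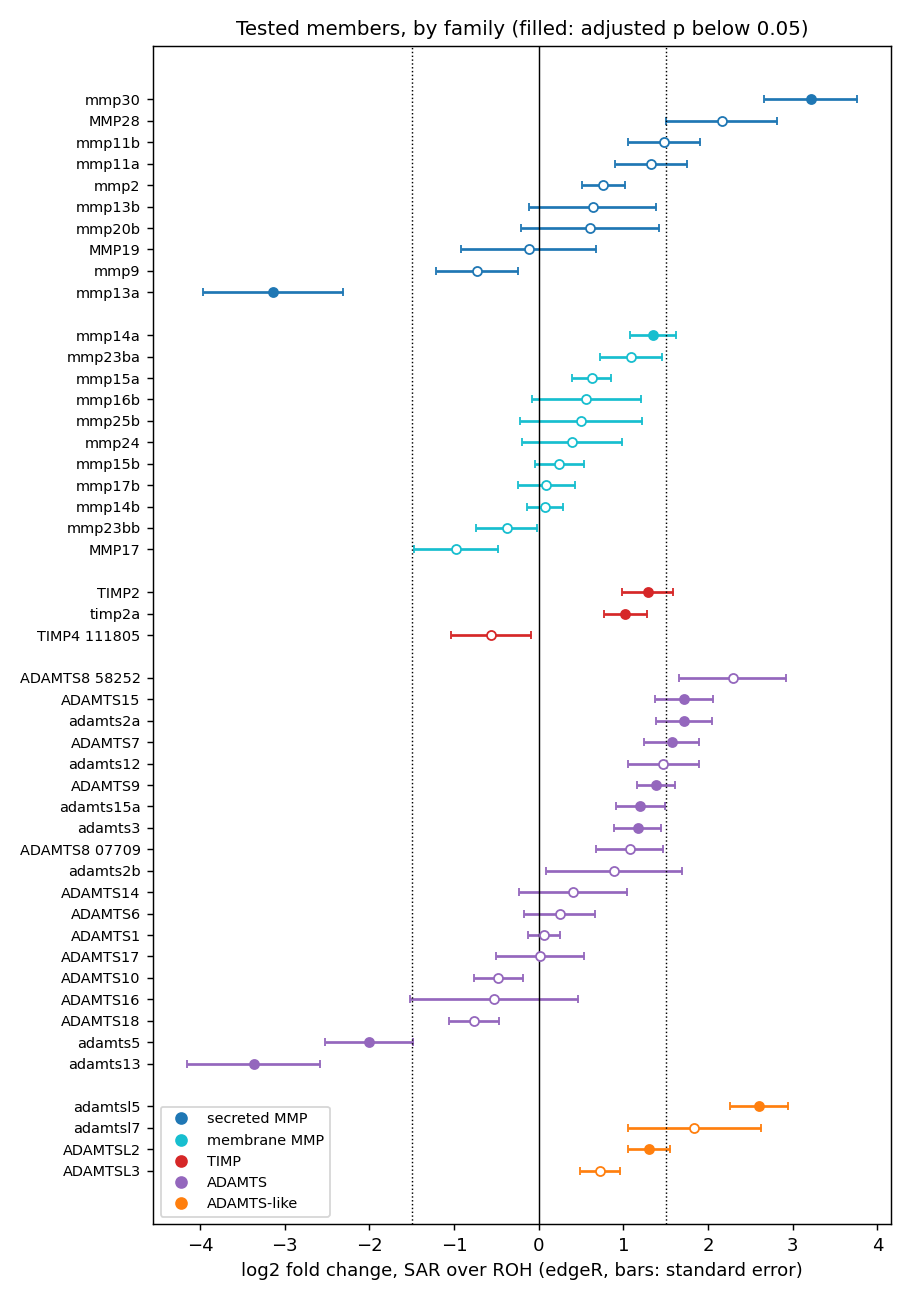
Log2 fold change (SAR over ROH) of the 47 tested members by family, with bars for the standard error, filled points for an adjusted p below 0.05 and dotted lines at the fold threshold of 1.5 in each direction. Most members lie right of 0, with adamts13, mmp13a and adamts5 at the far left and mmp30 and adamtsl5 at the far right.

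Proteases and inhibitors were both more abundant in SAR. The 24 MMPs summed to 308, 403 and 367 TPM in SAR, against 168, 194 and 268 TPM in ROH. The 5 TIMPs summed to 205, 244 and 271 TPM in SAR, against 96.7, 102 and 140 TPM in ROH. Both sums were higher in all 3 SAR libraries than in any ROH library, and the mean was 1.71 times as high for MMPs and 2.13 times as high for TIMPs. The ratio of the MMP sum to the TIMP sum was therefore lower in SAR, at 1.51, 1.65 and 1.35, against 1.73, 1.90 and 1.91 in ROH. The means of this ratio were 1.504 ± 0.15 in SAR and 1.85 ± 0.10 in ROH (SD, n = 3 each), and the fractions did not overlap. No test was made of these sums, since the members were chosen with results known. The sum of a class rests on a few genes: mmp2 gave 26.7% to 33.8% of the MMP sum over the 6 libraries, and timp2a gave 70.1% to 87.4% of the TIMP sum.

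The 19 ADAMTS proteases summed to 126, 151 and 171 TPM in SAR, against 94.6, 85.2 and 102 TPM in ROH, and the 4 ADAMTS-like genes to 32.7, 50.9 and 65.8 TPM in SAR, against 9.79, 13.2 and 16.8 TPM in ROH. The ADAMTS-like sum stood farthest apart, with a mean 3.75 times as high in SAR. Membrane-bound MMPs summed to 187 to 209 TPM in SAR, against 94.5 to 146 TPM in ROH. Secreted MMPs overlapped, at 121 to 194 TPM in SAR and 73.3 to 122 TPM in ROH, because SAR replicate 1 lay just below ROH replicate 3.

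**Figure D3:**
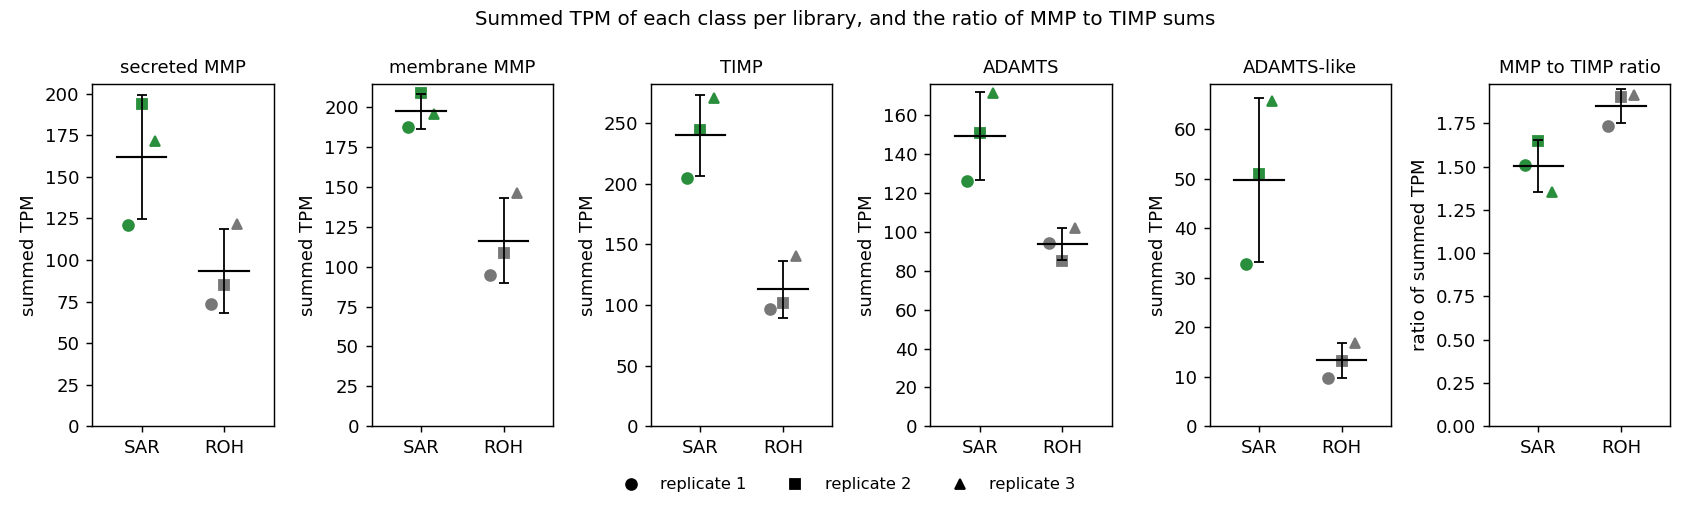
Summed TPM of each class per library and the ratio of the MMP to the TIMP sum, with SAR left of ROH, horizontal bars for the mean and vertical bars for the SD of 3 libraries. All class sums are higher in SAR on average, and the MMP to TIMP ratio is 1.504 in SAR and 1.85 in ROH.

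Among the secreted MMPs, mmp2 and mmp9 encode gelatinases, which cut denatured collagen and basement membrane collagen. The most abundant member of this class, mmp2, had 87.5, 136 and 111 TPM in SAR, against 48.1, 51.7 and 87.7 TPM in ROH. The lowest SAR library and the highest ROH library nearly coincided, and the log2 fold change of 0.76 (standard error 0.26) did not pass the edgeR test (adjusted p = 0.104). The other gelatinase, mmp9, had 2.85, 9.49 and 17.2 TPM in SAR, against 15.7, 16.6 and 15.3 TPM in ROH. The 3 ROH libraries were close together whereas the SAR libraries spread widely, with SAR replicate 3 above all of ROH, and the log2 fold change was −0.73 (standard error 0.49, edgeR adjusted p = 0.443).

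The secreted MMP with the largest difference was mmp30. It had 4.49, 5.45 and 10.6 TPM in SAR, against 0, 0.979 and 0.648 TPM in ROH, where ROH replicate 1 had no count, which allows up to 3.002 CPM at its depth. All SAR libraries lay above all ROH libraries, and the log2 fold change was 3.21 (standard error 0.55, edgeR adjusted p = 0.0097). The call held when any of the 6 libraries was left out, with log2 fold changes of 2.78 to 3.58. Over all 14 alternatives it held in 13 and was lost with limma on log2(TPM + 0.1) (log2 fold change 3.91, adjusted p = 0.0917).

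Collagenases of the MMP13 type cut fibrillar collagen. mmp13a was among the 3 members called lower, with 0, 0.346 and 0.252 TPM in SAR, against 1.18, 1.26 and 3.38 TPM in ROH. The fractions did not overlap, but the estimated counts were few, at 0, 12.5 and 20.8 in SAR against 1.4, 33.8 and 75.9 in ROH. The fitted log2 fold change was −3.13 (standard error 0.83, edgeR adjusted p = 0.0491), and leaving out any 1 of the 6 libraries ended the call, with adjusted p values of 0.0584 to 0.296. In the same direction, leukocyte markers were lower in SAR: 6 of 9 fell, among them lyz with 0, 0.208 and 0.573 TPM in SAR against 205, 227 and 352 TPM in ROH. The markers mpeg1.1, il1b and csf1ra did not pass the edgeR test (log2 fold changes of −2.67, −0.36 and 0.37, adjusted p = 0.0868, 0.555 and 0.884). Of these, mpeg1.1 passed with the replicate block (log2 fold change −2.79, edgeR adjusted p = 0.0222). The part of leukocyte RNA in the lower mmp13a level was not tested. The duplicate mmp13b had 0.770, 2.33 and 0.687 TPM in SAR, against 2.00, 0.899 and 0.387 TPM in ROH, and its log2 fold change of 0.64 (standard error 0.75) did not pass the edgeR test (adjusted p = 0.698).

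Stromelysin-3, the product of the mmp11 genes, is activated inside the cell by furin rather than outside it. mmp11a (chromosome 8 of GRCz11) had 5.44, 8.81 and 10.9 TPM in SAR, against 2.69, 2.24 and 4.55 TPM in ROH. mmp11b (chromosome 21) had 17.9, 22.4 and 11.5 TPM in SAR, against 1.84, 8.02 and 6.36 TPM in ROH. In both duplicates every SAR library exceeded every ROH library, but ROH replicate 1 held only 3 and 2 counts of them. The log2 fold changes of 1.33 (standard error 0.43) for mmp11a and 1.48 (standard error 0.42) for mmp11b did not pass the edgeR test (adjusted p = 0.0924 and 0.0646). With the replicate block mmp11a passed (log2 fold change 1.47, adjusted p = 0.0350).

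Of the membrane-bound MMPs, mmp14a (chromosome 7) rose and its duplicate mmp14b gave no detectable difference. MMP14 cuts collagen at the cell surface and activates the MMP2 precursor. mmp14a had 76.8, 102 and 96.5 TPM in SAR, against 26.6, 25.9 and 49.7 TPM in ROH. Every SAR library lay above the ROH libraries, with a log2 fold change of 1.35 (standard error 0.27, edgeR adjusted p = 0.0186). Leaving out SAR replicate 3, ROH replicate 1 or ROH replicate 2 took its adjusted p above 0.05, with log2 fold changes of 1.16 to 1.82 and adjusted p values of up to 0.0873 over all left-out libraries. mmp14b had 27.0, 52.3 and 37.3 TPM in SAR, against 26.4, 36.9 and 40.6 TPM in ROH, and the fitted log2 difference was 0.08 (standard error 0.21, edgeR adjusted p = 0.896), a sign that turned with scaling to library totals alone. The ratio of mmp14a to mmp14b was 2.84, 1.94 and 2.58 in SAR, against 1.004, 0.703 and 1.22 in ROH. The ratio is taken within a library, so it does not depend on the scaling between libraries.

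The mmp23 duplicates encode MMPs anchored by a signal anchor at the other end of the protein. mmp23ba had 42.0, 20.1 and 27.4 TPM in SAR, against 15.8, 11.3 and 16.6 TPM in ROH, and the fractions did not overlap. mmp23bb had 9.81, 5.54 and 5.34 TPM in SAR, against 8.54, 8.89 and 9.35 TPM in ROH, where the ROH libraries lay within the SAR range. Neither passed the edgeR test, with log2 fold changes of 1.09 (standard error 0.37, adjusted p = 0.108) and −0.38 (standard error 0.36, adjusted p = 0.623). The ratio of mmp23ba to mmp23bb was 4.28, 3.62 and 5.12 in SAR, against 1.85, 1.28 and 1.78 in ROH.

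Of 10 pairs of duplicated or neighbouring members whose ratios were compared, 4 had ratios that did not overlap between the fractions. No share over other gene pairs was computed, so this count has no background. For scale, single genes stood apart in CPM in 14.3% (SAR above) and 15.6% (SAR below) of all genes. These were mmp14a over mmp14b, mmp23ba over mmp23bb, mmp13a over mmp13b, and adamts5 over its neighbour ADAMTS1. The last is not a duplicate pair and was picked after its values were seen. The mmp13a and adamts5 ratios rest on the few counts of these called members. For the mmp14, mmp23 and adamts5 pairs the two-sided exact permutation test of the log2 ratio gave p = 0.1. This is the smallest value that 3 libraries against 3 can give, so this test cannot reach 0.05 for a single ratio. It was not made for the mmp13 pair, whose ratio was 0 in SAR replicate 1.

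**Figure D4:**
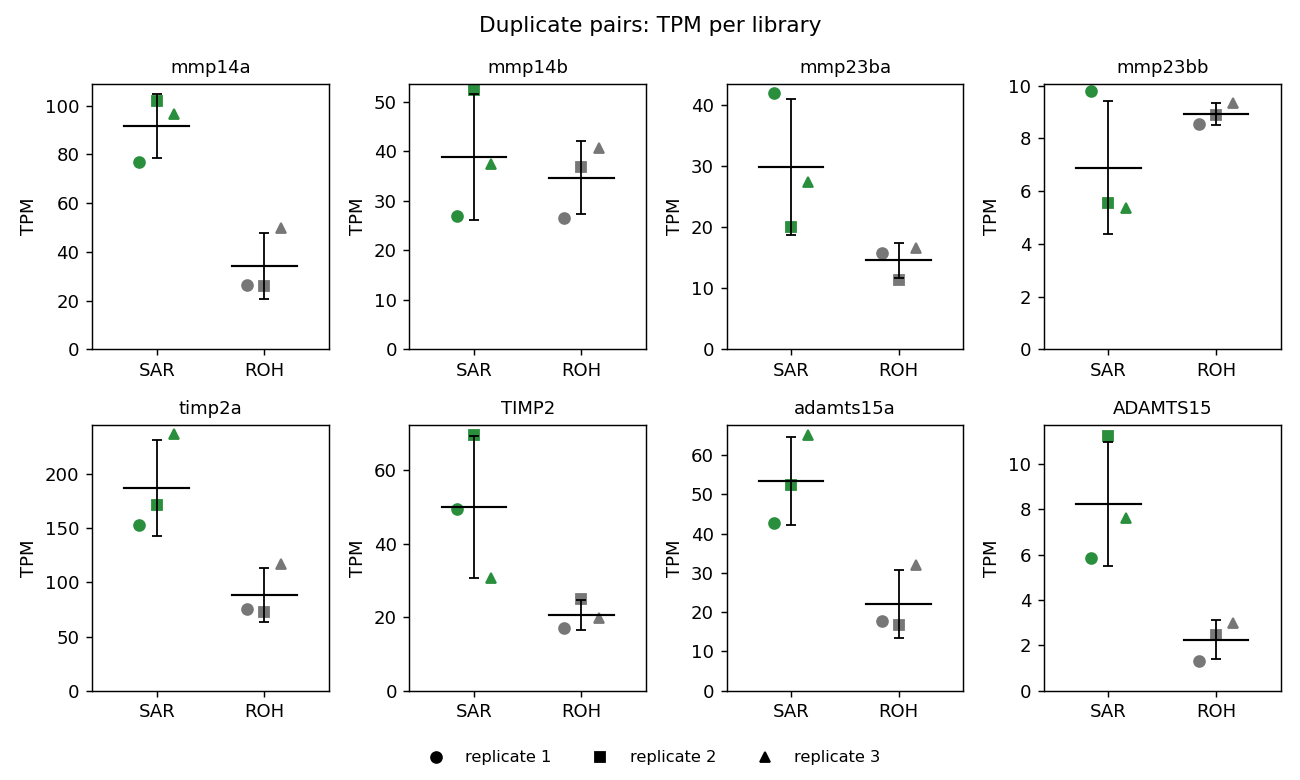
TPM per library of the members of 4 duplicate pairs, with SAR left of ROH, horizontal bars for the mean and vertical bars for the SD of 3 libraries. The first member of the mmp14 and mmp23 pairs is higher in SAR while the second overlaps between the fractions, and both members of the timp2 and adamts15 pairs are higher in SAR.

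The other 13 MMPs had mean levels of 0.107 to 10.9 TPM over the 6 libraries. Of these, 10 were tested, with log2 fold changes of −0.98 to 2.16, and 0 passed the edgeR test. At the upper end lay MMP28, chosen here after its values were seen, which is made by keratinocytes in mammals. It had 1.19, 5.43 and 4.90 TPM in SAR, against 0, 0.846 and 1.05 TPM in ROH (edgeR adjusted p = 0.0773), and it was called with the replicate block (log2 fold change 2.43, adjusted p = 0.0154). In the same direction, 7 of 9 epidermal markers rose, among them the keratin krt4 with 2400, 3389 and 1881 TPM in SAR, against 213, 254 and 396 TPM in ROH. The markers cldni and TP63 did not pass the edgeR test (adjusted p = 0.140 and 0.201). The part of epidermal RNA in the MMP28 level was not tested.

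Both TIMP2 genes rose in SAR. timp2a was the most abundant of all members, with 153, 171 and 237 TPM in SAR, against 75.6, 72.3 and 117 TPM in ROH. All SAR libraries were above all ROH libraries, and the log2 fold change was 1.02 (standard error 0.26, edgeR adjusted p = 0.0403). The second gene, annotated TIMP2 (ENSDARG00000075261), had 49.5, 69.8 and 30.8 TPM in SAR, against 16.99, 25.02 and 19.9 TPM in ROH. Its fractions did not overlap either, although SAR replicate 3 was close to ROH replicate 2, and the log2 fold change was 1.29 (standard error 0.30, edgeR adjusted p = 0.0309). The ratio between the genes overlapped, at 3.08, 2.45 and 7.68 in SAR and 4.45, 2.89 and 5.87 in ROH. Neither reached the fold threshold of a call, and both rested on the full set of libraries. The adjusted p of timp2a was above 0.05 without SAR replicate 1 or 3 or ROH replicate 1 or 2, with log2 fold changes of 0.83 to 1.37 and adjusted p values of up to 0.177 over the left-out libraries. That of TIMP2 was above 0.05 when any 1 library other than SAR replicate 3 was left out, with log2 fold changes of 1.06 to 1.55 and adjusted p values of up to 0.0985.

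The 3 genes annotated TIMP4 were scarce. ENSDARG00000111805 had 1.67, 2.07 and 1.77 TPM in SAR, against 4.06, 3.31 and 1.68 TPM in ROH, with a log2 fold change of −0.57 (standard error 0.47, edgeR adjusted p = 0.557). The other two, ENSDARG00000100795 and ENSDARG00000102617, were not tested, with at most 1.39 TPM and 0.597 TPM in any library. They share their symbol, and reads of such similar copies may have been divided between them by the quantification.

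Of the procollagen-trimming ADAMTS proteases, which remove the amino-terminal propeptide of fibrillar collagens, adamts3 rose. Its product also takes part in the processing of the lymphatic growth factor VEGF-C. adamts3 had 11.3, 12.2 and 13.9 TPM in SAR, against 3.76, 4.44 and 7.28 TPM in ROH. The SAR libraries were close together and above ROH, with a log2 fold change of 1.17 (standard error 0.27, edgeR adjusted p = 0.0326). Leaving out SAR replicate 1, SAR replicate 3, ROH replicate 1 or ROH replicate 2 took the adjusted p above 0.05 (log2 fold changes of 1.01 to 1.61, adjusted p values of up to 0.164 over the left-out libraries).

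adamts2a was called higher on counts, but not on length-normalized values. It had 2.34, 3.32 and 5.41 TPM in SAR, against 9.20, 1.75 and 1.002 TPM in ROH, and ROH replicate 1 was the highest library of all. That value rests on 6 counts, since the gene length listed for this library was 329 bases, against 3693 to 7967 bases in the other 5 libraries. The estimated counts were 108, 546 and 1937 in SAR against 6, 182 and 83.1 in ROH, and the fit on counts gave a log2 fold change of 1.71 (standard error 0.33, edgeR adjusted p = 0.0158). With gene length offsets the log2 fold change was 0.52 (edgeR adjusted p = 0.809, where the adjusted p ranged from 1.89e-04 to 0.908 over all 14 alternatives). Without SAR replicate 3 or ROH replicate 3 the call was lost as well, with adjusted p values of up to 0.0567. Its duplicate adamts2b varied widely, with 9.64, 1.38 and 6.59 TPM in SAR and 3.40, 1.72 and 3.74 TPM in ROH (edgeR adjusted p = 0.595).

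Among the ADAMTS proteases described next, whose relatives in mammals cut versican and related proteoglycans, adamts15a and ADAMTS15 rose, adamts5 fell, and ADAMTS1 and the 2 ADAMTS8 genes did not pass the test. adamts15a, the most abundant ADAMTS protease, had 42.7, 52.4 and 65.1 TPM in SAR, against 17.6, 16.6 and 32.0 TPM in ROH. The fractions did not overlap, with a log2 fold change of 1.199 (standard error 0.29, edgeR adjusted p = 0.0366). Leaving out SAR replicate 1, SAR replicate 3, ROH replicate 1 or ROH replicate 2 took its adjusted p above 0.05, with log2 fold changes of 0.997 to 1.68 and adjusted p values of up to 0.151 over the left-out libraries.

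The second gene of this pair, ADAMTS15 (ENSDARG00000033544, chromosome 15), was scarcer and had the larger fold. It had 5.83, 11.2 and 7.62 TPM in SAR, against 1.302, 2.46 and 2.99 TPM in ROH. All SAR libraries exceeded all ROH libraries, and the log2 fold change was 1.71 (standard error 0.34, edgeR adjusted p = 0.0177). The call was lost without ROH replicate 2 (adjusted p = 0.0937).

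ADAMTS1 gave no detectable difference. It had 32.0, 30.1 and 37.6 TPM in SAR, against 35.2, 29.1 and 29.6 TPM in ROH, and the log2 fold change was 0.06 (standard error 0.19, edgeR adjusted p = 0.904), a sign that turned when library totals alone were used. adamts5, which lies next to adamts1 in the RefSeq gene order, had 0.327, 0.276 and 0.331 TPM in SAR, against 0.883, 1.69 and 0.939 TPM in ROH. The SAR libraries were all below the ROH libraries, with a log2 fold change of −2.01 (standard error 0.52, edgeR adjusted p = 0.0466). The estimated counts were 5, 17 and 49 in SAR against 2, 80 and 37 in ROH. The call did not survive leaving out any 1 of the 6 libraries, with adjusted p values of 0.0669 to 0.332, and was lost with the replicate block (adjusted p = 0.0635).

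ADAMTS8 stands for 2 genes in the annotation. ENSDARG00000058252 (chromosome 15) had 0.465, 1.71 and 1.14 TPM in SAR, against 0.440, 0.137 and 0.348 TPM in ROH, and ENSDARG00000007709 had 4.33, 11.04 and 6.49 TPM in SAR, against 3.42, 4.82 and 2.60 TPM in ROH. The log2 fold changes of 2.29 (standard error 0.63, adjusted p = 0.0574) and 1.08 (standard error 0.40, adjusted p = 0.139) did not pass the edgeR test. With the replicate block both passed, at log2 fold changes of 2.50 (adjusted p = 0.0443) and 1.17 (adjusted p = 0.0282). ROH replicate 1 had 1 count of the first and 4 of the second.

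ADAMTS7 (chromosome 7), which cuts cartilage oligomeric matrix protein in mammals, was called higher. It had 4.31, 4.24 and 7.07 TPM in SAR, against 1.38, 1.51 and 2.05 TPM in ROH. The fractions stood clear of each other, with a log2 fold change of 1.57 (standard error 0.32, edgeR adjusted p = 0.0200), just above the fold threshold. The call was lost without SAR replicate 3, ROH replicate 1 or ROH replicate 2, with adjusted p values of up to 0.112 and log2 fold changes of 1.299 to 1.87 over the left-out libraries.

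adamts13 (chromosome 8) had the most negative fold change of all members. Its product cuts von Willebrand factor in the blood, and in mammals it is made mainly in the liver and in endothelial cells. It had 0.167, 1.03 and 0.118 TPM in SAR, against 2.68, 6.99 and 3.64 TPM in ROH. The SAR libraries were all below the ROH libraries, with a log2 fold change of −3.37 (standard error 0.79, edgeR adjusted p = 0.0322). The call was lost without SAR replicate 1 or any 1 ROH library, with log2 fold changes of −5.14 to −2.84 and adjusted p values of up to 0.110 over the left-out libraries. The highest SAR library, replicate 2, also had the highest liver marker sum in SAR, at 2092 TPM against 228 and 54.2 TPM in replicates 1 and 3. The same held for the endothelial sum, at 104 TPM against 69.0 and 95.6 TPM. In ROH, replicate 2 was likewise highest for adamts13 and for both sums, at 6.99, 18394 and 633 TPM. The lowest ROH library differed: adamts13 was lowest in replicate 1, which held 12 counts of it. Both sums were lowest in replicate 3, at 10790 and 259 TPM. Liver markers were lower in SAR, with 3 of 5 falling (5 with the replicate block), and endothelial markers likewise, with 4 of 6 falling, among them cdh5 with 0.845, 8.53 and 1.40 TPM in SAR against 81.6, 150 and 40.2 TPM in ROH. The endothelial marker kdrl fell as well with the replicate block (log2 fold change −1.17, edgeR adjusted p = 0.0274). The part of liver and endothelial RNA in the adamts13 difference was not tested.

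The other 8 ADAMTS proteases had mean levels of 0.198 to 4.24 TPM and log2 fold changes of −0.77 to 1.47. One of these passed the edgeR test, ADAMTS9, a further versican-cutting protease named here after its values were seen. ADAMTS9 had 3.94, 7.70 and 6.64 TPM in SAR, against 2.38, 2.47 and 2.30 TPM in ROH, and the fitted difference was 1.39 on the log2 scale (standard error 0.22, edgeR adjusted p = 0.0075). A second, adamts12, was called with the replicate block (log2 fold change 1.58, adjusted p = 0.0141), against an adjusted p of 0.0643 in the main edgeR fit. It had 1.11, 4.05 and 2.69 TPM in SAR, against 2.92, 0.873 and 1.07 TPM in ROH, so the fractions overlapped. ROH replicate 1 held 4.02 estimated counts of it, at a listed length of 1542 bases against 4356.5 in every other library.

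**Figure D5:**
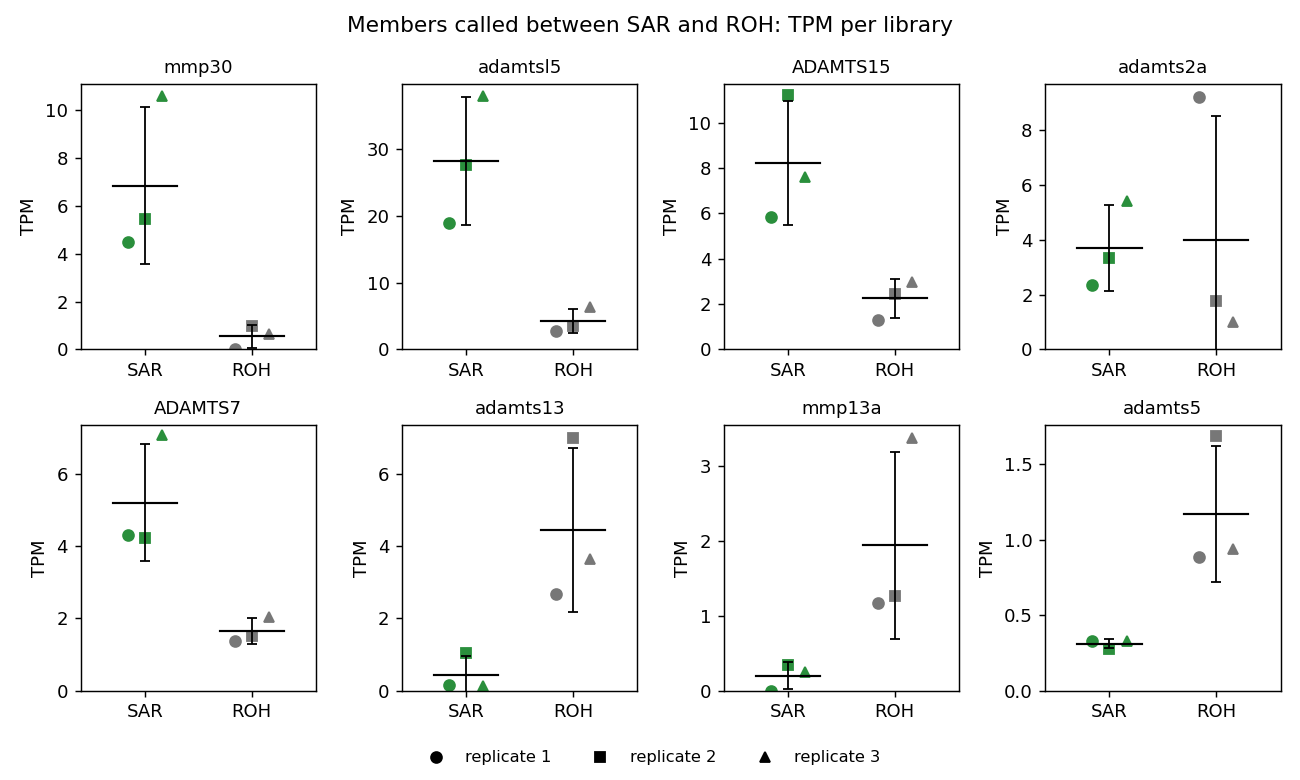
TPM per library of the 8 called members, with SAR left of ROH, horizontal bars for the mean and vertical bars for the SD of 3 libraries (drawn from 0 upwards). The fractions are apart in 7 of the 8 members, and adamts2a overlaps because ROH replicate 1 lies at 9.20 TPM.

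ADAMTS-like proteins bind the matrix without cutting it. The strongest of the 4 genes was adamtsl5 (chromosome 7), whose human product binds fibrillin microfibrils. It had 18.9, 27.7 and 38.1 TPM in SAR, against 2.81, 3.58 and 6.31 TPM in ROH. The lowest SAR library was far above the highest ROH library, with a log2 fold change of 2.60 (standard error 0.34, edgeR adjusted p = 0.0038). It stayed called under all 14 alternatives, with log2 fold changes of 2.33 to 3.12 and a highest adjusted p of 0.0221. ADAMTSL2, a regulator of microfibrils and TGF-beta in mammals, had 4.37, 4.67 and 3.41 TPM in SAR, against 1.66, 1.70 and 1.39 TPM in ROH. Its libraries did not overlap, with a log2 fold change of 1.31 (standard error 0.25, edgeR adjusted p = 0.0144), and it no longer passed without ROH replicate 2 or 3 (adjusted p values of up to 0.0729 over the left-out libraries). The remaining 2 genes had log2 fold changes of 0.73 and 1.84 and did not pass the edgeR test. The second of them, adamtsl7, was called with the replicate block (log2 fold change 2.09, adjusted p = 0.0095), against an adjusted p of 0.203 in the main edgeR fit. Its fractions overlapped, at 0.851, 10.3 and 11.8 TPM in SAR and 0.588, 1.91 and 2.72 TPM in ROH. ROH replicate 1 held 1 count of it.

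Other genes of matrix turnover were read from a list of 70, of which 66 were tested. Among them 7 rose in SAR (10.6%, against 4.88% of all genes) and 6 fell (9.09%, against 5.45% of all genes). With the replicate block 14 rose and 9 fell, beside 6.77% and 7.25% of all genes. On the activating side, PLAT, the tissue plasminogen activator, had 8.21, 16.9 and 9.50 TPM in SAR, against 0, 2.38 and 2.81 TPM in ROH (log2 fold change 2.34, standard error 0.53, edgeR adjusted p = 0.0289). a2ml, an alpha-2-macroglobulin-like inhibitor, fell by 3.48 on the log2 scale (standard error 0.79, edgeR adjusted p = 0.0290), with 1.58, 7.54 and 0.565 TPM in SAR, against 21.6, 45.0 and 32.2 TPM in ROH. In both fractions replicate 2 had the highest a2ml level and the highest liver marker sum. In SAR the other libraries also kept the order of the liver sums, while ROH replicates 1 and 3 did not. The liver sums were 12585, 18394 and 10790 TPM in ROH replicates 1 to 3. The part of liver RNA in the a2ml difference was not tested.

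Of the other metalloproteinases on that list, adam8b rose (log2 fold change 1.07, edgeR adjusted p = 0.0169) and ece1, which activates endothelin, fell (log2 fold change −1.24, edgeR adjusted p = 0.0120). Of 22 substrates and related genes of the cardiac jelly and basement membrane, fn1b (fibronectin) rose and 4 fell, beside 4.88% and 5.45% of all genes, and with the replicate block 3 rose and 5 fell. fn1b had 132, 127 and 158 TPM in SAR, against 52.8, 46.6 and 57.9 TPM in ROH (log2 fold change 1.33, edgeR adjusted p = 0.0058). Its duplicate FN1 did not pass the edgeR test (log2 fold change −0.25, adjusted p = 0.548). The 4 lower genes were has2, which makes hyaluronan, hapln1b, a hyaluronan link protein, vcana, a versican gene, and bgna, a biglycan gene. has2 had 12.2, 22.5 and 9.97 TPM in SAR, against 54.2, 67.1 and 34.5 TPM in ROH (log2 fold change −1.88, edgeR adjusted p = 0.0096). hapln1b and bgna had log2 fold changes of −1.96 and −2.45 (edgeR adjusted p = 0.0076 and 0.0065). Their duplicates hapln1a and BGN did not pass the edgeR test (log2 fold changes of 0.30 and −0.82, adjusted p = 0.662 and 0.0996). vcana had 2.20, 4.40 and 1.95 TPM in SAR, against 8.97, 7.59 and 8.27 TPM in ROH (log2 fold change −1.40, edgeR adjusted p = 0.0415). Its duplicate vcanb did not pass the edgeR test (adjusted p = 0.403).

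Of 8 inducers and partners of MMPs, 3 rose, beside 4.88% of all genes, and 5 rose with the replicate block. lrp1ab, an endocytic receptor that clears proteases and their inhibitors, had 7.91, 5.44 and 9.44 TPM in SAR, against 1.499, 2.05 and 2.30 TPM in ROH (log2 fold change 1.90, standard error 0.29, edgeR adjusted p = 0.0063). fosl1a and junba, subunits of the AP-1 transcription factor that binds many MMP promoters, had log2 fold changes of 1.06 and 0.94 (edgeR adjusted p = 0.0424 and 0.0444). fosl1a had 300, 610 and 295 TPM in SAR, against 135, 213 and 187 TPM in ROH.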

How the data were processed

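RNA-seq was done on sorted heart cells of the zebrafish line sqet33mi59BEt at 72 hpf, with 3 SAR and 3 ROH libraries grouped by the GFP status in the sample labels. The authors made cDNA with SMART-Seq v4, demultiplexed with bcl2fastq 2.16.10, trimmed with cutadapt and quantified with Salmon (version not given in the sources used here) on GRCz11. The authors deposited TPM values, normalized to effective gene length and library total, and estimated counts per gene, both for 31465 genes. Symbols came from the study's supplementary annotation (21 members) and from an Ensembl name table (31 members), and 5 members share a symbol with another. No sequence is shown because none was among the references used.

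Estimated counts were rounded and tested with edgeR 4.0.16 (quasi-likelihood, TMM factors of 0.915 to 1.07, filterByExpr with a minimum count of 10 and a total of 15, R 4.3.3) across all genes, with Benjamini-Hochberg adjustment over 21969 genes. A call needed an adjusted p below 0.05 and a log2 fold change of at least 1.5. On simulated data with 200 changed genes at a log2 fold of 2, 195 were tested. At an adjusted p below 0.05 without the fold threshold, the main edgeR fit recovered 98 of these and wrongly passed 10 unchanged genes. The replicate block, on the same 195, recovered 79 and wrongly passed 13. DESeq2 tested all 200, recovered 135 and wrongly passed 60 unchanged genes, more than any other test tried. For limma at a pseudocount of 1, which also tested 200, the numbers were 83 and 11. Alternatives used DESeq2 1.42.0, limma 3.58.1 on log2(TPM + 1) and log2(TPM + 0.1), other scalings and filters, a replicate block, each library left out and, added after seeing the data, gene length offsets. The depth sets a floor of 3 counts, from 0.0388 to 3.002 CPM between libraries. No library pair had identical counts. The study's methods describe each pool of hearts being sorted into both fractions, so the replicate numbers were taken to pair the libraries: same-numbered libraries deviated from their group means with correlations of 0.10, 0.27 and 0.12, and each correlated best with its own number. The main fit had no block, as the study's methods name none.

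Named members were those called, every TIMP, the 5 MMPs and 5 ADAMTS proteases with the highest mean TPM, mmp11a, duplicates of these, and ADAMTS-like genes with an adjusted p below 0.05 (29 in all). From the list of other matrix genes, those with an adjusted p below 0.05 were named, except 1 that is not reported here. The members and lists were chosen with earlier results of these data known.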

Additional observations from a re-analysis of the deposited data

How the results depend on the processing

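The calls were few and moved with the settings. In the simulation, DESeq2 wrongly passed 60 unchanged genes against 10 with edgeR, so its larger counts below are the less strict ones. Against 5 members called higher and 3 lower, DESeq2 gave 9 and 3, the replicate block 9 and 2, RLE size factors 5 and 2, gene length offsets 4 and 1, limma on log2(TPM + 1) 2 and 0, limma on log2(TPM + 0.1) 1 and 0, and a minimum of 10 counts in every library 0 and 0 (18 members tested). Leaving out 1 library gave 3 to 10 higher and 0 to 1 lower. Calls over all genes moved as well, from 624 higher and 813 lower of 21969 genes. They were 848 and 1043 of 22635 with DESeq2, 719 and 1040 with the replicate block, and 649 and 795 with RLE size factors. They were 599 and 765 with gene length offsets and 215 and 391 of 11306 with the count minimum. Limma gave 375 and 533 of 30435 at a pseudocount of 1, and 389 and 453 at 0.1. With 1 library left out they were 369 to 647 and 442 to 1035. Without the fold threshold, 12 members rose and 3 fell, against 18 and 3 with DESeq2, 18 and 2 with the replicate block, 10 and 1 with gene length offsets, 3 and 0 and 2 and 0 with limma at pseudocounts of 1 and 0.1, 7 and 0 with the count minimum, and 4 to 12 and 0 to 1 with 1 library left out. At an unadjusted p below 0.05, edgeR gave 23 higher and 4 lower members, DESeq2 23 and 4, each limma fit 18 and 3, and the count minimum 11 and 1. For the adjusted p alone, shares over all genes were counted in the main fit and the replicate block only. No such shares were counted at the unadjusted p. Beyond the changes given above for mmp11a, MMP28, adamts5, adamts12, adamtsl7 and both ADAMTS8 genes, the replicate block changed no call of a member. The cause of these shifts was not tested.

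The mean MMP to TIMP ratio stayed lower in SAR with sums of CPM (1.46 in SAR and 1.87 in ROH). Without the most abundant member of each class the means were 5.14 in SAR and 6.11 in ROH, but the single libraries of the fractions then overlapped. With 1 library left out the mean ratio was 1.43 to 1.58 in SAR and 1.82 to 1.91 in ROH. Single values were followed under the alternatives only for the named members tested in the main fit. Among these, signs turned for 3 members. Of these, 2 lay near 0: ADAMTS1 (−0.050 with library totals only, −0.013 to 0.19 with 1 library left out) and mmp14b (−0.023 with library totals only, −0.098 to 0.27 with 1 library left out). The third, mmp13b, had 0.64 in the main fit and turned only without SAR replicate 2 (−0.072 to 0.97 with 1 library left out). Scaling to library totals set the median log2 fold change of all genes at −0.08, against 0.03. Of the other values of these named members under the alternatives, 299 kept their direction and side of the threshold. Another 74 lost and 11 gained an adjusted p below 0.05. Depth limits the scarce members most, since ROH replicate 1 had a floor of 3.002 CPM.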

Other observations

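The called members mmp13a and mmp30 lie close together and differed in direction. In the RefSeq gene order of GRCz12tu, mmp13a and mmp30 are separated by 1 protein-coding gene, and their log2 fold changes (SAR over ROH) were −3.13 and 3.21. The neighbours adamts5 and ADAMTS1 had −2.01 and 0.06. Both pairs were picked after their values were seen.

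The gene length listed by the quantification differed by more than 1.5 times between libraries for 9 members, among them adamts2a and adamts13, and for these the TPM and the count can order the libraries differently. The 5 untested members had at most 1.39 TPM and 49 estimated counts in any library.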
